A study of Mus musculus with 64 samples.

Results

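In the early distal convoluted tubule (DCT) of the mouse, the transcript response to a furosemide diet was compared between 96 h and the earlier times of 12, 24 and 48 h. The measure is a diet by time contrast: the furosemide minus control difference at 96 h, minus the mean of that difference at the 3 earlier times, averaged over males and females. It is called the late minus early effect here and is given in log2 units, so that a positive value means that furosemide moved a gene further up, or less far down, at 96 h than before. All 64 libraries of 64 enter it, 16 from 96 h and 48 from the earlier times. Sex, diet and time divide them into 16 groups of 4. Every mouse, controls included, carried the Pvalb-tdTomato transgene on a C57BL/6 background (C57BL/6-Tg (Pvalb-tdTomato)15Gfng/J), in which the parvalbumin gene drives a red fluorescent protein, and the DCT was dissected from the kidney. Furosemide mice changed from the control diet to one with furosemide, and each time had control-diet mice of its own. The labels used here do not give the age of the mice, and nothing says that replicates come from different animals. The p-values therefore rest on the scatter among libraries, which may in part be technical.

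The DCT lies just downstream of the thick ascending limb and the macula densa, and reabsorbs sodium chloride through the thiazide-sensitive cotransporter NCC (Slc12a3). Furosemide blocks the cotransporter NKCC2 in the thick ascending limb, so more salt reaches the DCT, and the segment is known to grow under prolonged loop diuretic treatment. Growth of a tissue by cell division shows in transcripts of the replication machinery, made in S phase largely under E2F factors. It also shows in those of the mitotic machinery, made in G2 and M phase and regulated by the DREAM and B-MYB complexes. Steroid hormones act in this segment through the mineralocorticoid and glucocorticoid receptors, whose ligand-bound forms switch on a small set of rapid target genes.

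The libraries held 12.71 to 41.07 M (1e+06) counts. Those of 96 h were deeper (median 32.4 M against 19.15 M) and had fewer Lars2 counts (median 10600 against 36130 counts per 1e+06 of all counts) and a smaller mitochondrial share (median 10.78% against 17.83%). Slc12a3 was abundant in every library, between 4060 and 12180 counts per 1e+06, and the collecting duct markers Aqp2 (median 1.668, 0 in 2 libraries), Foxi1 (0.998, 0 in 1 library) and Slc26a4 (2.356) were low. Other markers on the principal and intercalated cell lists were higher, with medians of 74.72 for Gata3, 48.05 for Npnt, 52.73 for Atp6v1b1, 14.87 for Oxgr1 and 8.748 for Elf5. The summed lists had medians of 140 and 98.77 counts per 1e+06 of all counts. On the same scale the summed endothelial markers had a median of 705.6 (374.3 to 3132) and the summed immune markers 455.6 (166.2 to 2326). Of the 64 libraries, 3 correlated poorly with their own group, all from the earlier times: female control 24 h replicate 3, female control 48 h replicate 4 and male furosemide 12 h replicate 4. At 96 h, 5 of the 8 furosemide libraries (female replicates 2, 3 and 4, male replicates 3 and 4) had more Lars2 than any control of that time. Results are given below with and without these libraries where the value turns on them.

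The late minus early effect was carried by genes of DNA replication and mitosis, with a positive value, and by Fkbp5, a target of the glucocorticoid receptor, with a negative one. Of 41507 genes tested, 7 were called at an adjusted p under 0.05 (edgeR's quasi-likelihood test, adjusted by Benjamini and Hochberg's method), which is 0.0169% of the genes, with 6 higher (0.0145%) and 1 lower (0.00241%). DESeq2 called 41 higher and 18 lower, and voom with quality weights 738 and 744. The 6 called higher were Mcm5 and Lig1, which act in DNA replication, and Ube2c, Cdca8, Birc5 and Cenpm, which act in chromosome segregation. At an unadjusted p under 0.05, 1066 genes (2.57%) stood higher and 627 (1.51%) lower. The furosemide effect at 96 h on its own called 34 genes (0.0819%), 29 higher (0.0699%) and 5 lower (0.012%), and the mean effect of the 3 earlier times called 155 (0.373%), 94 higher (0.226%) and 61 lower (0.147%), or 82 and 82 under RLE scaling. That early count was 2720 when female control 24 h replicate 3 was left out, 78 when male furosemide 24 h replicate 4 was, and 2964 (2250 higher and 714 lower) without the 3 libraries of poor correlation.

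Mcm5 had the smallest adjusted p. It encodes part of the hexameric helicase that opens DNA at replication origins, and lies on chromosome 8 between 75109569 and 75128439 of GRCm38 (ENSMUSG00000005410). At 96 h its counts per 1e+06 counts (CPM, scaled by the trimmed mean of M-values) were 6.92, 5.23, 5.77 and 6.45 in the control females and 7.10, 5.37, 5.85 and 6.53 in the control males. Under furosemide they were 11.7, 17.7, 17.3 and 18.0 in the females and 28.4, 27.1, 24.2 and 18.7 in the males. Every furosemide library lay above every control. Before 96 h the group means were closer, at 8.70, 11.0 and 9.28 CPM in controls of 12, 24 and 48 h against 11.9, 12.6 and 14.4 CPM under furosemide (n = 8 each). The furosemide effect was therefore 0.42 (SE 0.106) over the earlier times and 1.70 (SE 0.186) at 96 h, and the late minus early effect was 1.27 (SE 0.211, adjusted p = 0.00464 by edgeR). Mcm2, which encodes another subunit of that helicase, had 9.69 to 11.9 CPM in the 96 h controls and 17.5 to 32.9 CPM under furosemide, and a late minus early effect of 0.94 (SE 0.229, adjusted p = 0.283), which did not pass.

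Lig1 (ENSMUSG00000056394, chromosome 7 from 13277283 to 13311433) encodes DNA ligase I, which joins the Okazaki fragments of the lagging strand. Its 8 control libraries of 96 h ran from 3.58 to 8.25 CPM (median 5.32) and its 8 furosemide libraries from 8.54 to 20.7 CPM (median 17.8), with no overlap. Before 96 h the group means lay between 4.61 and 6.75 CPM in controls and between 4.76 and 8.14 CPM under furosemide. The furosemide effect went from 0.03 (SE 0.144) before to 1.501 (SE 0.251) at 96 h, a late minus early effect of 1.47 (SE 0.287, adjusted p = 0.0263 by edgeR).

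The mitotic genes showed little difference between diets before 96 h. Ube2c (ENSMUSG00000001403, chromosome 2 from 164769898 to 164778822), which loads ubiquitin for the anaphase-promoting complex, ran from 9.87 to 22.8 CPM (median 13.2) in the 96 h controls and from 28.2 to 49.8 CPM (median 36.4) under furosemide. Before 96 h the means of its groups of 8 lay between 11.4 and 13.6 CPM in controls and between 11.9 and 12.5 CPM under furosemide. Its effect was −0.03 (SE 0.127) early and 1.32 (SE 0.222) at 96 h, and the late minus early effect was 1.36 (SE 0.255, adjusted p = 0.0205). Cdca8 (ENSMUSG00000028873, chromosome 4 from 124918465 to 124939311), which encodes borealin of the chromosomal passenger complex, ran from 3.74 to 9.34 CPM in controls and from 9.62 to 21.1 CPM under furosemide, so that these groups of 96 h did not overlap either. Its effect was −0.11 (SE 0.129) early and 1.30 (SE 0.224) late, with a late minus early effect of 1.41 (SE 0.257, adjusted p = 0.017).

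Birc5 (ENSMUSG00000017716, chromosome 11 from 117849251 to 117855743), which encodes survivin, a second subunit of the passenger complex, ran from 12.0 to 26.0 CPM (median 18.3) in the 96 h controls and from 19.0 to 58.9 CPM (median 45.6) under furosemide, with some overlap. Its late minus early effect was 1.27 (SE 0.258, adjusted p = 0.0413), from −0.11 (SE 0.129) early and 1.16 (SE 0.225) late. Cenpm (ENSMUSG00000068101, chromosome 15 from 82233779 to 82244748), which encodes a protein of the inner kinetochore, ran from 3.36 to 9.23 CPM (median 4.88) in controls and from 7.98 to 24.9 CPM (median 16.5) under furosemide, again with some overlap. It had the largest late minus early effect of the 6 genes, 1.80 (SE 0.341, adjusted p = 0.0205), from −0.22 (SE 0.171) early and 1.58 (SE 0.297) late. Adjusted p-values here are edgeR's.

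**Figure D1:**
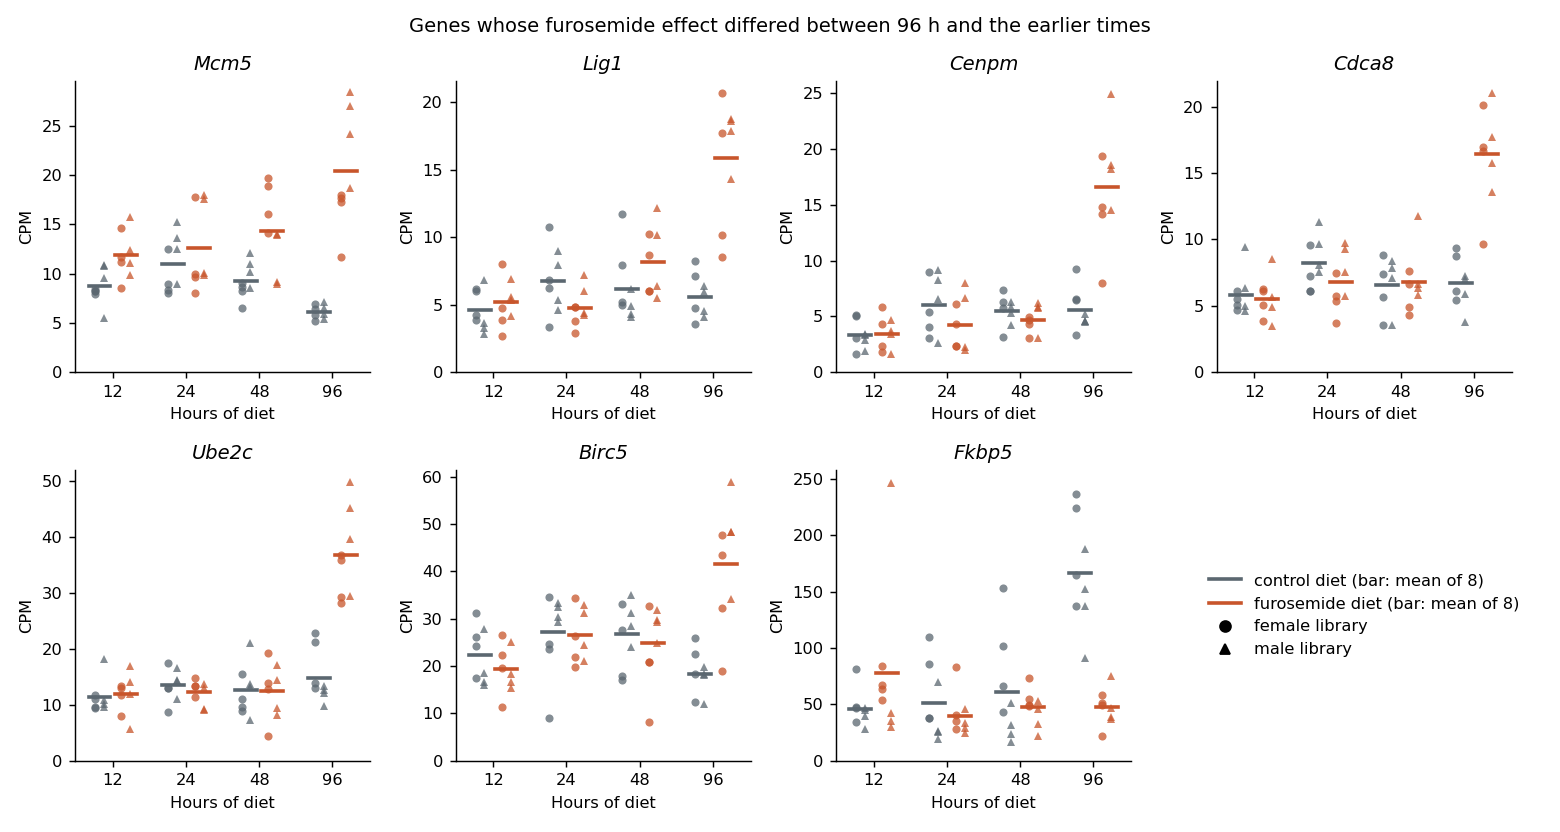
CPM of the 7 called genes in each of the 64 libraries, by hours of diet. Grey marks control and orange furosemide, circles are females and triangles males, and bars are means of 8 libraries. In the 96 h column Mcm5, Lig1, Ube2c and Cdca8 separate fully upward and Fkbp5 fully downward, while Birc5 and Cenpm overlap slightly.

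Other cell cycle genes pointed the same way without passing. Cdk1, the kinase that drives entry into mitosis, ran from 3.79 to 14.4 CPM (median 7.39) in the 96 h controls and from 16.1 to 48.2 CPM (median 26.7) under furosemide. Its earlier means were 3.29, 4.94 and 4.12 CPM in controls and 2.78, 3.69 and 6.71 CPM under furosemide. The 96 h groups did not overlap, but the late minus early effect of 1.80 (SE 0.407) had an adjusted p of 0.157 by edgeR. Spc24, a subunit of the NDC80 complex that ties kinetochores to microtubules, had 1.14 (SE 0.252, adjusted p = 0.127), and the beta-tubulin gene Tubb5 had 1.05 (SE 0.244, adjusted p = 0.187) with 18.8 to 31.4 CPM in the 96 h controls and 44.8 to 70.6 CPM under furosemide. Over all genes tested, 67 (0.161%) had every 96 h furosemide library above every control and 17 (0.041%) had the reverse.

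The lists that hold these genes were positive nearly throughout. Of 55 S phase genes, 54 had a positive late minus early effect, with a median of 0.61, 2 called (Mcm5 and Lig1) and 26 higher at an unadjusted p under 0.05. The G2/M list had 69 of its 71 members positive and a median of 1.06, with 3 called (Ube2c, Cdca8 and Birc5) and 51 higher at an unadjusted p under 0.05. Cenpm is in neither list. Over all 41507 genes the median was 0.06 with 55.45% positive, and over the 14744 genes with an average of at least 2 log2 CPM it was 0.01 with 51.76% positive. The median effect at the earlier times was 0.09 for S phase and 0.05 for G2/M, and at 96 h it was 0.73 and 1.12. The 12, 24 and 48 h medians were 0.11, −0.01 and 0.15 for S phase and 0.07, −0.01 and 0.06 for G2/M. Both lists overlap with genes known to be called at 96 h in these data, so their counts are descriptions.

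Summed over the list, the G2/M transcripts of the 96 h libraries ran from 851 to 1360 CPM in controls and from 1447 to 2606 CPM under furosemide. Before 96 h the furosemide libraries ran from 773 to 1163 CPM and the controls from 747 to 2605 CPM, the highest being female control 24 h replicate 3, 1 of the 3 libraries that correlate poorly with their group. The summed S phase transcripts ran from 653 to 804 CPM in the 96 h controls, from 913 to 1547 CPM under furosemide at 96 h and from 606 to 986 CPM under furosemide before. In bulk tubules, more cells in division and more such RNA per cell cannot be told apart.

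**Figure D2:**
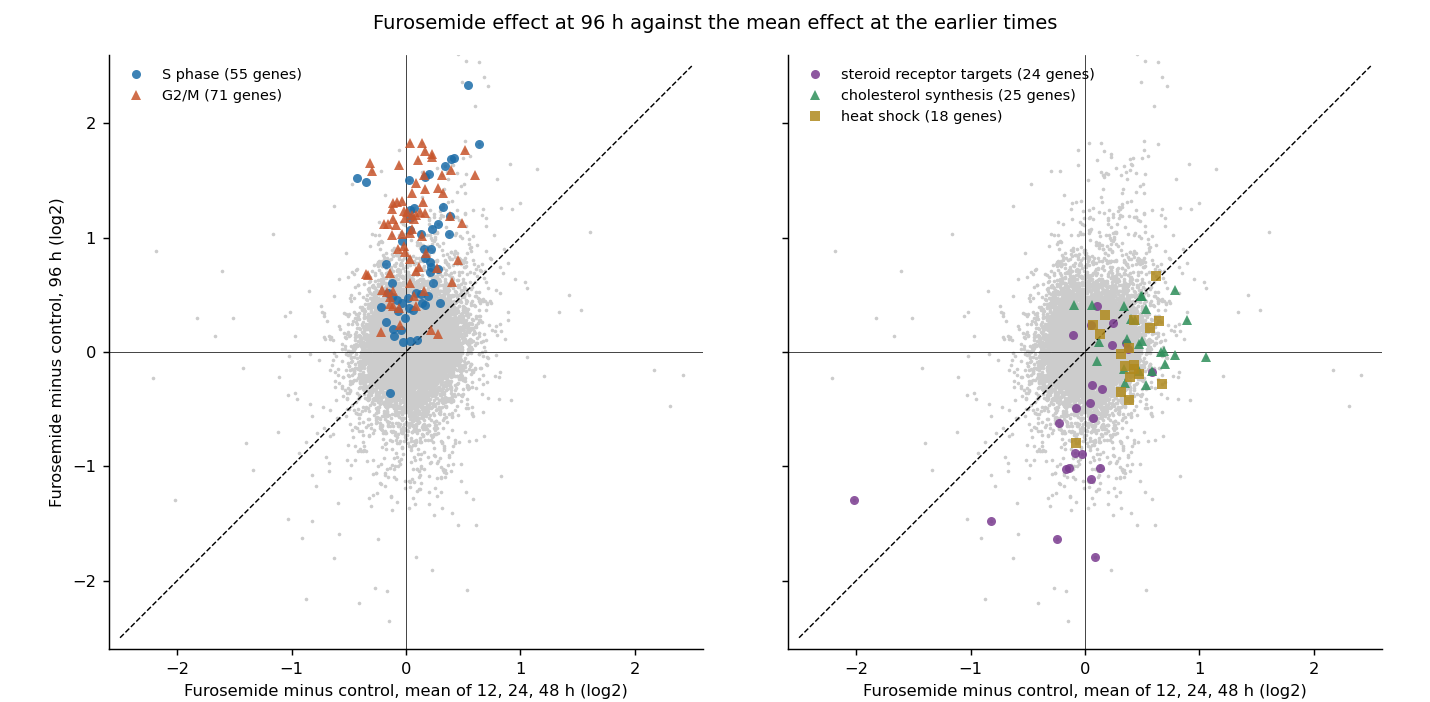
Furosemide effect (log2) averaged over 12, 24 and 48 h on the horizontal axis against the effect at 96 h on the vertical axis, 1 point per gene, with list genes coloured over all genes of at least 2 log2 CPM in grey and the line of equal effects dashed. S phase and G2/M genes (left) lie near 0 on the horizontal axis and above it on the vertical one, steroid receptor targets (right) lie mostly below the line, and cholesterol and heat shock genes lie to the right of 0; some genes lie beyond the axes.

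Because several of these genes move together, the 250 bases before their annotated starts were read from RefSeq on GRCm38.p6 and searched on both strands for motifs of the factors named above. The motifs were 4 E2F words (TTT, then CC, GG, CG or GC, then CGC), the cell cycle homology region (CHR, TTTGAA) that DREAM and B-MYB bind, the CCAAT box bound by NF-Y, and the glucocorticoid response element (GNACA and TGTNC with any 3 bases between them). The promoters shown are those of the 4 called higher genes with matches. The other 4 of the 8 promoters of these 6 genes, 3 of Lig1 and 1 of Birc5, hold none of the motifs in this window. Each is given 5′ to 3′ on the strand of its gene, with the E2F matches of Mcm5 and Cenpm and the CHR and CCAAT matches of Ube2c and Cdca8 in capitals. Mcm5 (chr8:75109259-75109508, plus strand) holds overlapping E2F matches that start 153 and 149 bases before the start. Cenpm (chr15:82244337-82244586, minus strand) holds 1 E2F match at 71 bases. Both also hold 2 CCAAT boxes, left in lower case below, at 77 and 22 bases in Mcm5 and at 172 and 131 bases in Cenpm. Ube2c (chr2:164769679-164769928, plus strand) holds 1 CHR at 29 bases and 6 CCAAT boxes, of which 2 overlap. Cdca8 (chr4:124936918-124937167, minus strand) holds 3 CCAAT boxes, at 85, 51 and 11 bases, and no CHR in this window. The gene spans in this text come from another annotation (GENCODE), whose starts can differ from those of RefSeq. The RefSeq windows of Cdca8, Cenpm and Fkbp5 lie inside those spans, as do those of Lig1 at chr7:13278576-13278825 and chr7:13279015-13279264. The end of the Ube2c window, which holds its CHR, lies inside the Ube2c span.
Mcm5: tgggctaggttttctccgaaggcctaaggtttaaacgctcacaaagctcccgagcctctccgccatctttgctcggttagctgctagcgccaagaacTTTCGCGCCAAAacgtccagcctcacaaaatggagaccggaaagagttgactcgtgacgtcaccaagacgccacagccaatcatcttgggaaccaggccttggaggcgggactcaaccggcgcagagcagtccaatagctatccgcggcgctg
Cenpm: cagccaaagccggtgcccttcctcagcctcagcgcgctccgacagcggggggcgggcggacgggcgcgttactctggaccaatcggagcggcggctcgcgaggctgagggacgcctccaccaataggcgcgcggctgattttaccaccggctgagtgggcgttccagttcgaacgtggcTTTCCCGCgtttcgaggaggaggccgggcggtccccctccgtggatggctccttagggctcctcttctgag
Ube2c: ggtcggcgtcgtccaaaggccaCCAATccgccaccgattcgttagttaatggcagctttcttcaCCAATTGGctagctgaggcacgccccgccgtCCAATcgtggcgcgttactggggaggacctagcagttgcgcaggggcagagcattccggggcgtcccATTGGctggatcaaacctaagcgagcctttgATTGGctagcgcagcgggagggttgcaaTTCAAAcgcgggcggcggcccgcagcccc
Cdca8: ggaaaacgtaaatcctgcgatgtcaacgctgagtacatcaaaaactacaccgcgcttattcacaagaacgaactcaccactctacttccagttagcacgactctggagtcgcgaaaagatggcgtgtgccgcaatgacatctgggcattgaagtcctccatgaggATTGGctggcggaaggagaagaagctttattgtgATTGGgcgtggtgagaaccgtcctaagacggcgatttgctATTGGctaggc

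Of 32851 mouse promoters of this length, 611 (1.86%) held an E2F word, 5252 a CHR, 11120 (33.8%) a CCAAT box and 127 (0.387%) the glucocorticoid element. Among 46 promoters of the 41 S phase genes that matched the table, 11 (23.9%) held an E2F word, 4 (8.7%) a CHR and 26 (56.5%) a CCAAT box. Among 63 promoters of 56 matched G2/M genes, 2 (3.17%) held an E2F word, 23 (36.5%) a CHR and 45 (71.4%) a CCAAT box. The CCAAT box was also found in 16 of 20 promoters of cholesterol synthesis genes and in 14 of 27 (51.9%) of steroid receptor targets. Of 27 promoters of 18 matched steroid receptor targets, 2 (7.41%) held the glucocorticoid element. The promoter of Fkbp5 held none in this window, but it held 2 CCAAT boxes, at 93 and 46 bases. A match is a description of letters and not a binding site.

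Fkbp5 (ENSMUSG00000024222, chromosome 17 from 28399094 to 28517527) was the 1 gene called lower in the contrast. It encodes a co-chaperone that lowers the ligand affinity of the glucocorticoid receptor and is itself switched on by that receptor. At 96 h the control females had 137, 237, 224 and 165 CPM and the control males 153, 137, 188 and 90.9 CPM. The furosemide females had 51.2, 22.3, 58.2 and 49.6 CPM and the furosemide males 37.3, 74.8, 38.5 and 47.2 CPM, so that every furosemide library lay below every control. The effect was −1.80 (SE 0.326) at 96 h and 0.09 (SE 0.183) over the earlier times, and the late minus early effect was −1.89 (SE 0.371, adjusted p = 0.0267 by edgeR).

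For Fkbp5 the difference between the periods lay in the controls. Its control means were 46.2, 51.5 and 61.0 CPM at 12, 24 and 48 h and 166 CPM at 96 h, while its furosemide means were 77.8, 40.1, 47.6 and 47.4 CPM. The 12 h furosemide mean includes male replicate 4 at 246.6 CPM, where the next library had 83.69 CPM. The Fkbp5 level at 96 h minus that of the earlier times was 1.74 (SE 0.239, adjusted p = 2.3e-07) in controls and −0.14 (SE 0.261, adjusted p = 0.862) under furosemide, by edgeR. Tsc22d3, which encodes the glucocorticoid-induced leucine zipper, had the same shape, with 96 h minus earlier values of 1.59 (SE 0.241) in controls and 0.20 (SE 0.257) under furosemide. At 96 h it ran from 110 to 217 CPM in controls and from 27.1 to 86.6 CPM under furosemide without overlap, and its late minus early effect of −1.40 (SE 0.37, adjusted p = 0.434) did not pass.

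The other steroid targets followed in sign more than in strength. Negative values were found for 19 of 24 genes on the list of steroid receptor targets. That list also holds the receptor genes Nr3c1 and Nr3c2 and the steroid enzyme genes Hsd11b1 and Hsd11b2. The list median was −0.49, and 1 gene was called (Fkbp5) with 7 lower at an unadjusted p under 0.05. The list's median furosemide effect was 0.05 early and −0.54 at 96 h, and its median for 96 h minus earlier was 0.45 in controls and −0.04 under furosemide. Usp2, a deubiquitinase under both steroid and clock control, ran from 266 to 372 CPM in the 96 h controls and from 106 to 205 CPM under furosemide, with a late minus early effect of −1.15. Sgk1, the aldosterone-induced kinase that raises sodium transport, had −1.16 (SE 0.404), with 71.8 to 132 CPM against 29.7 to 109 CPM at 96 h, which overlap. Neither was called.

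The proliferation genes mostly differed on the furosemide side. For 96 h minus earlier, Cdca8 had −0.03 (SE 0.181) in controls and 1.39 (SE 0.169) under furosemide, Lig1 −0.04 (SE 0.202) and 1.44 (SE 0.188), Ube2c 0.23 (SE 0.177) and 1.58 (SE 0.166), and Cenpm 0.20 (SE 0.236) and 2.00 (SE 0.219). Mcm5 fell in controls (−0.63, SE 0.155) and rose under furosemide (0.64, SE 0.143), and Birc5 had −0.45 (SE 0.186) and 0.82 (SE 0.174). Cdk1 rose in both, by 1.05 (SE 0.271) and 2.84 (SE 0.258). The list medians for controls and furosemide were 0.15 and 0.64 for S phase and 0.26 and 1.23 for G2/M. Changes to 96 h within a diet called 5111 genes in controls (12.3%) and 2611 under furosemide (6.29%), and within a diet the passage of time cannot be told apart from the depth, Lars2 and mitochondrial differences of the 96 h libraries.

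**Figure D3:**
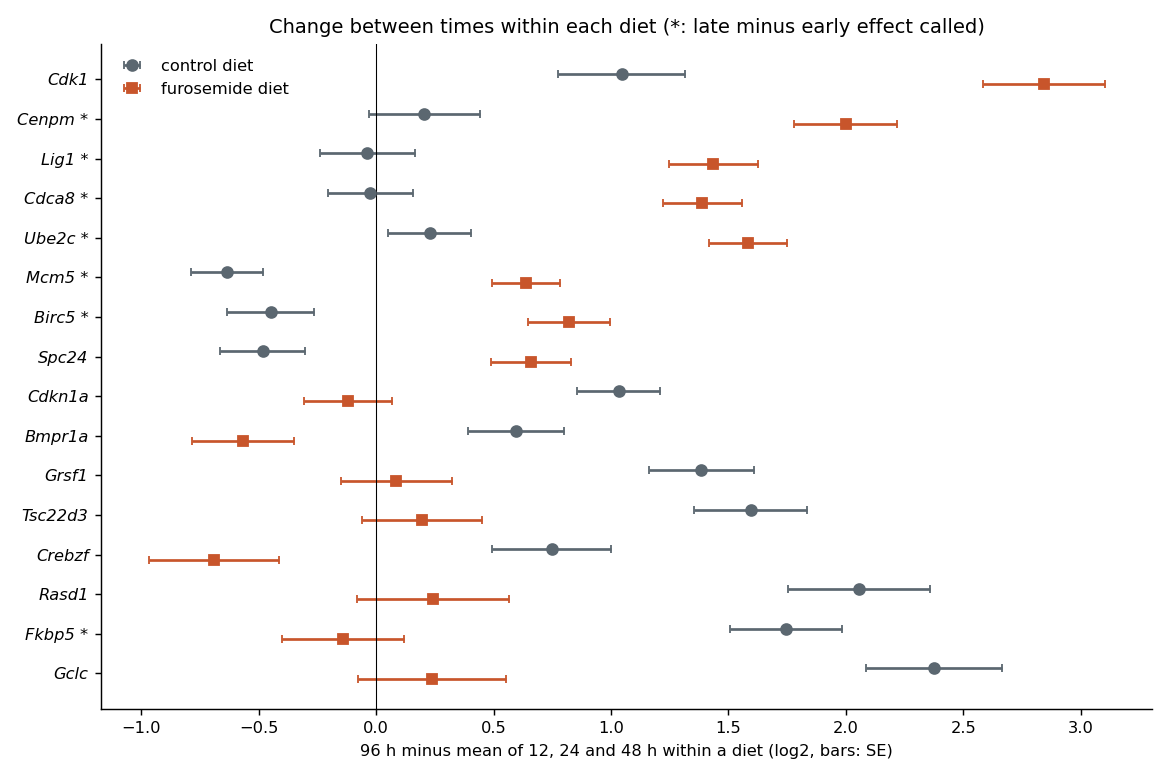
Change from the mean of 12, 24 and 48 h to 96 h (log2, bars are SE) of 16 genes within the control diet and within the furosemide diet; a star marks the genes called in the late minus early contrast. Lig1, Ube2c, Cdca8 and Cenpm lie near 0 in controls and above 1 under furosemide, and Fkbp5, Gclc and Tsc22d3 lie above 1 in controls and near 0 under furosemide.

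Among the uncalled genes of smallest p in the lower direction, Gclc, the catalytic subunit of glutamate-cysteine ligase, which limits glutathione synthesis, had −2.14 (SE 0.46, adjusted p = 0.0974). Its 96 h controls spread from 105 to 975 CPM (median 427) and its furosemide libraries from 21.4 to 322 CPM (median 106), which overlap. Cdkn1a, the p53-induced inhibitor of cyclin-dependent kinases known as p21, had −1.15 (SE 0.265, adjusted p = 0.187), with 96 h minus earlier values of 1.03 in controls and −0.12 under furosemide. Rasd1, a dexamethasone-induced Ras family gene, had −1.81, with 8.96 to 20.99 CPM in the 96 h controls and 1.44 to 6.87 CPM under furosemide, which did not overlap. Bmpr1a, a receptor of bone morphogenetic proteins, had −1.16, and the genes Grsf1 and Crebzf had −1.30 and −1.44. The p53 target Trp53inp1 had −1.22, and Gadd45g and Sesn1, which respond to stress, had −1.39 and −1.02.

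Other pathways had an early furosemide effect that was smaller at 96 h. Among 25 genes of cholesterol synthesis, 22 had a negative late minus early effect, with a median of −0.40, 0 called and 10 lower at an unadjusted p under 0.05. Their median furosemide effect was 0.49 early, with 9 called, Sqle and Acat2 among them, and 0.09 at 96 h, with 0 called. Sqle, squalene epoxidase, had 0.69 early and 0.01 at 96 h, where its controls ran from 42.2 to 96.6 CPM and its furosemide libraries from 40.9 to 88.7 CPM. Acat2, which makes acetoacetyl-CoA for the pathway, had 0.79 early and −0.02 at 96 h, and its late minus early effect of −0.81 was not called. A pathway called early and not at 96 h is not thereby shown to differ between them, and the test of that difference called none of its genes.

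Heat shock genes had a similar shape, with 14 of 18 negative, a median of −0.42, 0 called and 4 lower at an unadjusted p under 0.05. The constitutive chaperone gene Hspa8 had an effect of 0.67 early, where it was called with Hspa9, Hspd1 and Hspe1, and −0.28 at 96 h. Its control means were 567.5, 523 and 403 CPM at 12, 24 and 48 h and 1046 CPM at 96 h, and its furosemide means were 789, 738, 778 and 854 CPM. Glycolysis had 16 of 19 negative with a median of −0.19, from 0.44 early, with Pfkp, Pkm and Ldha called, to 0.25 at 96 h. Ldha, a lactate dehydrogenase subunit, had 0.95 early and 0.64 at 96 h, where it was not called (SE 0.328, 188 to 398 CPM in controls and 257 to 592 CPM under furosemide), and the sign of its late minus early effect of −0.31 turned in 3 settings.

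Other genes had a furosemide effect of the same sign in both periods. Tubb2b, a neuronal-type beta-tubulin, had 0.86 early, where it was called, and 0.90 at 96 h, where it was not, a late minus early effect of 0.04 that takes either sign among the alternatives. Pdk4, the kinase that inhibits pyruvate dehydrogenase, was called lower in both periods, with −0.87 early and −2.16 at 96 h (46.8 to 220 CPM in controls and 12.2 to 48.0 CPM under furosemide), and its late minus early effect of −1.29 was not called. Of the 94 genes called higher early, 78 (83.0%) were also positive at 96 h and 2 were called there, Mcm5 and the predicted gene Gm12338. Of the 61 called lower early, 39 (63.9%) were also negative at 96 h and 2 were called there, Angptl4 and Pdk4. Only 22 of these 61 averaged at least 2 log2 CPM, against 87 of the 94. Predicted or clone-based gene models and pseudogenes made up 32 of the 61 and 13 of the 94. These periods share no library, and over all genes 50.61% were positive and 49.27% negative at 96 h.

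The furosemide effect on genes that define the segment was not called as different between the periods. Slc12a3 had a late minus early effect of −0.03 (SE 0.261), with 3735 to 7163 CPM in the 96 h controls and 4160 to 8749 CPM under furosemide. Its sign was the opposite under RLE scaling, DESeq2 and 4 other settings. Parvalbumin (Pvalb) had 0.26, the growth factor gene Egf 0.28 and the magnesium channel gene Trpm6 −0.41. The DCT identity list had 11 of its 30 genes positive (median −0.06, 0 called, 1 lower at an unadjusted p under 0.05), and the regulators of NCC had 7 of 29 (median −0.23, 0 called, 3 lower at an unadjusted p under 0.05). Among the latter, Cab39 and Stk39, an adaptor and a kinase that activate NCC, had −1.25 and −1.11. Oxidative phosphorylation (18 of 33 positive, median 0.01), magnesium and calcium transport (11 of 22, median −0.05) and tubulins and the actin cytoskeleton (14 of 26, median 0.03) lay near the median of all genes with all libraries in. Without female control 24 h replicate 3, oxidative phosphorylation had 2 of 33 positive (median −0.31), tubulins and the actin cytoskeleton 7 of 26 (median −0.25), DCT identity 6 of 30 (median −0.23) and glycolysis 1 of 19 (median −0.50).

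The remaining lists had 0 called genes each. The clock genes were divided, with 11 of 20 positive, a median of 0.07, and 3 higher and 3 lower at an unadjusted p under 0.05. Among them Nfil3, a repressor of clock output genes, had −1.39 (SE 0.444), with control means of 7.06, 6.17 and 7.34 CPM at the earlier times and 36.4 CPM at 96 h, and furosemide means of 11.5, 10.4, 8.96 and 21.3 CPM. Genes of cell cycle entry and arrest had 19 of 30 positive (median 0.13), p53 and injury genes 5 of 21 (median −0.17), and immediate early genes 12 of 25 (median −0.06), where Dusp6, the phosphatase that restrains ERK, had −0.88 and the transcription factor Klf6 −0.63. Fasting and FoxO targets had 6 of 30 positive (median −0.20) and glutathione and NRF2 targets 7 of 30 (median −0.15). Without female control 24 h replicate 3 the medians were −0.40 for FoxO targets, −0.35 for NRF2 targets, −0.33 for p53 and injury genes and −0.30 for ribosome biogenesis.

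Growth-related lists other than the cell cycle had medians near 0 with all libraries in. Ribosome biogenesis and MYC targets had 7 of 24 positive (median −0.09), with the nucleolar genes Nop58 and Gnl3 at 0.46 and 0.37. The ATF4 stress response had 9 of 19 positive (median −0.03), with Psat1 of serine synthesis at 0.84, and growth factor signalling 23 of 40 (median 0.08), with the secreted ligand Wnt4 at 0.77, a sign that turns without the libraries high in Lars2. Genes of the mitochondrial genome had 12 of 15 positive and a median of 0.14, which was 0.62 in males and −0.34 in females.

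**Figure D4:**
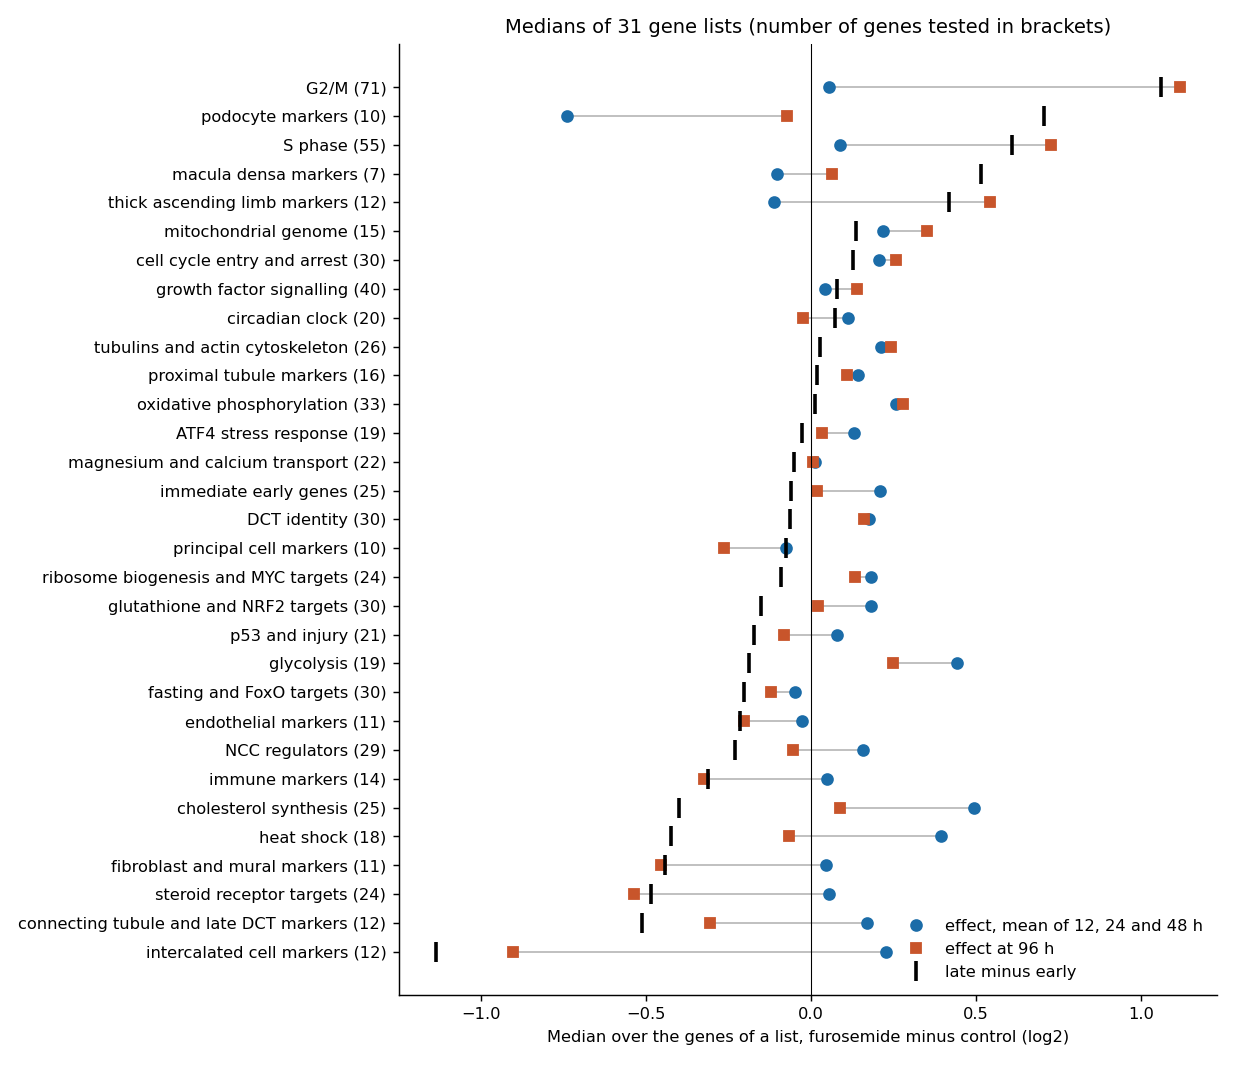
Median furosemide effect (log2) of 31 gene lists, all but the erythroid markers, over the earlier times (circle) and at 96 h (square), with the median late minus early effect (tick). Among these 31, G2/M has the widest upward step, intercalated cell markers have the widest downward one, and cholesterol synthesis moves from 0.49 to 0.09.

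Markers of neighbouring cells also had effects in this contrast. All 12 intercalated cell markers were negative, with a median of −1.14, 0 called and 5 lower at an unadjusted p under 0.05; the median was −1.95 in males and −0.17 in females. Slc26a4, the pendrin gene of type B intercalated cells, had −2.62 (SE 0.766, adjusted p = 0.64), with 0.66 to 38.7 CPM in the 96 h controls and 0.57 to 5.46 CPM under furosemide. Their sum at 96 h ran from 55.1 to 259 CPM (median 128.5) in controls and from 57.4 to 124 CPM (median 72.5) under furosemide. Markers of the connecting tubule and late DCT were negative in 11 of 12 genes (median −0.51, 0 called). On the same scale their 96 h sum was 5325 to 11190 in controls and 4867 to 13160 under furosemide. Within that list Scnn1g, a subunit of the epithelial sodium channel, had −1.46 and Ren1, the renin gene, 2.02.

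Markers of the thick ascending limb were positive in 10 of 12 genes (median 0.42, 0 called). The tight junction genes Cldn19 and Cldn10 of that list had 1.26 and 1.90. The list's 96 h sum ran from 4404 to 11210 CPM in controls and from 4790 to 11050 CPM under furosemide. The list also holds Umod and Egf, which are counted above among genes of the DCT itself. On the scale of that sum, the median over all libraries was 4446 for Umod, 1899 for Egf and 115.7 for Slc12a1. The whole list had 8250, so its sum is not specific to the thick ascending limb. For podocyte markers 9 of 10 genes were positive (median 0.71), but 5 of 10 (median 0.15) without male control 12 h replicate 3, whose podocyte sum of 4012 CPM was the highest of all libraries (median 71.19). Macula densa markers were positive in 5 of 7 genes (median 0.51) and proximal tubule markers in 9 of 16 (median 0.02, and −0.44 without male furosemide 96 h replicate 2). Principal cell markers were positive in 3 of 10 genes (median −0.08), endothelial markers in 3 of 11 (median −0.21), immune markers in 1 of 14 (median −0.31), fibroblast and mural markers in 1 of 11 (median −0.44) and erythroid markers in 4 of 6 (median 1.41). The erythroid median ran from −0.42 without male furosemide 96 h replicate 2 to 3.01 without female control 96 h replicate 4, and their summed level had a median of 5.764 CPM. With 1 library left out at a time, the median ran from −0.71 to −0.07 for fibroblast and mural markers, from −0.66 to −0.14 for immune markers and from −0.41 to −0.05 for endothelial markers. In males and females the medians were −0.75 and 0.21 for immune markers, with 0 and 12 of 14 genes positive. They were −0.34 and 0.25 for endothelial, 0.54 and −0.30 for proximal tubule and −0.69 and 0.08 for principal cell markers. The other lists of this paragraph had medians of the same sign in males and females. In each of these lists 0 genes were called. The part of these markers in the results above was not tested.

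Each sex had the direction of the whole for all 7 called genes. The genes were called on these same libraries of both sexes, so this is a description. The late minus early effect in males and in females was 1.75 and 0.79 for Mcm5, 1.43 and 1.52 for Lig1, 1.94 and 0.77 for Ube2c, 1.565 and 1.26 for Cdca8, 1.57 and 0.97 for Birc5, 2.13 and 1.46 for Cenpm, and −1.99 and −1.78 for Fkbp5. The G2/M median was 1.39 in males and 0.66 in females, and the S phase median 0.80 and 0.39. Males alone called 2 genes, Mcm5 and Ube2c, and females alone 0 (949 at an unadjusted p under 0.05). For the difference between the sexes in the contrast edgeR called 0 genes (731 had an unadjusted p under 0.05), voom 0 and DESeq2 22. For Ube2c that difference was 1.17 (SE 0.506) and for Mcm5 0.96 (SE 0.42).

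The 3 earlier times were not alike for every gene. Fkbp5 had a furosemide effect of 1.15 in males and 0.35 in females at 12 h, of −0.08 and −0.53 at 24 h, and of 0.32 and −0.68 at 48 h. The male 12 h value includes male furosemide 12 h replicate 4, at 246.6 CPM with the next library at 83.69 CPM. That library is 1 of the 3 of poor correlation, and without it the late minus early effect of Fkbp5 was −1.67. Set against 12 h alone, the contrast called 1 gene (Fkbp5), against 24 h alone 2 (Mcm5 and Lig1), and against 48 h alone 0 (2305 at an unadjusted p under 0.05). For Mcm5 the female effect was 0.48, 0.27 and 1.09 at 12, 24 and 48 h and 1.41 at 96 h, and the male effect 0.42, 0.15, 0.14 and 1.99 (1.985). A test of whether the 12, 24 and 48 h effects differ among themselves called 3 genes, Gm4459, Igha and Gm2907, none of them in the lists. It did not call Fkbp5 or Mcm5.

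The number of calls depended on the libraries and the method, while the signs of the 7 genes did not in the settings run. These settings reuse the libraries on which the 7 genes were called, so the kept signs are a description and not independent support. DESeq2 called 59 genes, all 7 among them, with 7 S phase and 13 G2/M genes. Without the 3 libraries of poor correlation 25 were called. Without the 5 furosemide libraries high in Lars2, which leaves 1 female and 2 male furosemide libraries at 96 h, 1 gene was called (the predicted gene Gm20463) and none of the 7, with Mcm5 at 1.10 (SE 0.279, adjusted p = 0.391), Lig1 at 1.11, Ube2c at 1.22, Cdca8 at 1.08, Birc5 at 0.77, Cenpm at 1.45 and Fkbp5 at −1.73. There the S phase median was 0.60 (47 of 55 positive), the G2/M median 0.94 (67 of 71) and the heat shock median −0.01. With Lars2 as a covariate 7 were called, 5 of them the same, and Fkbp5 (−1.51, adjusted p = 0.24) and Birc5 (0.96, adjusted p = 0.264) were not, by edgeR.

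**Figure D5:**
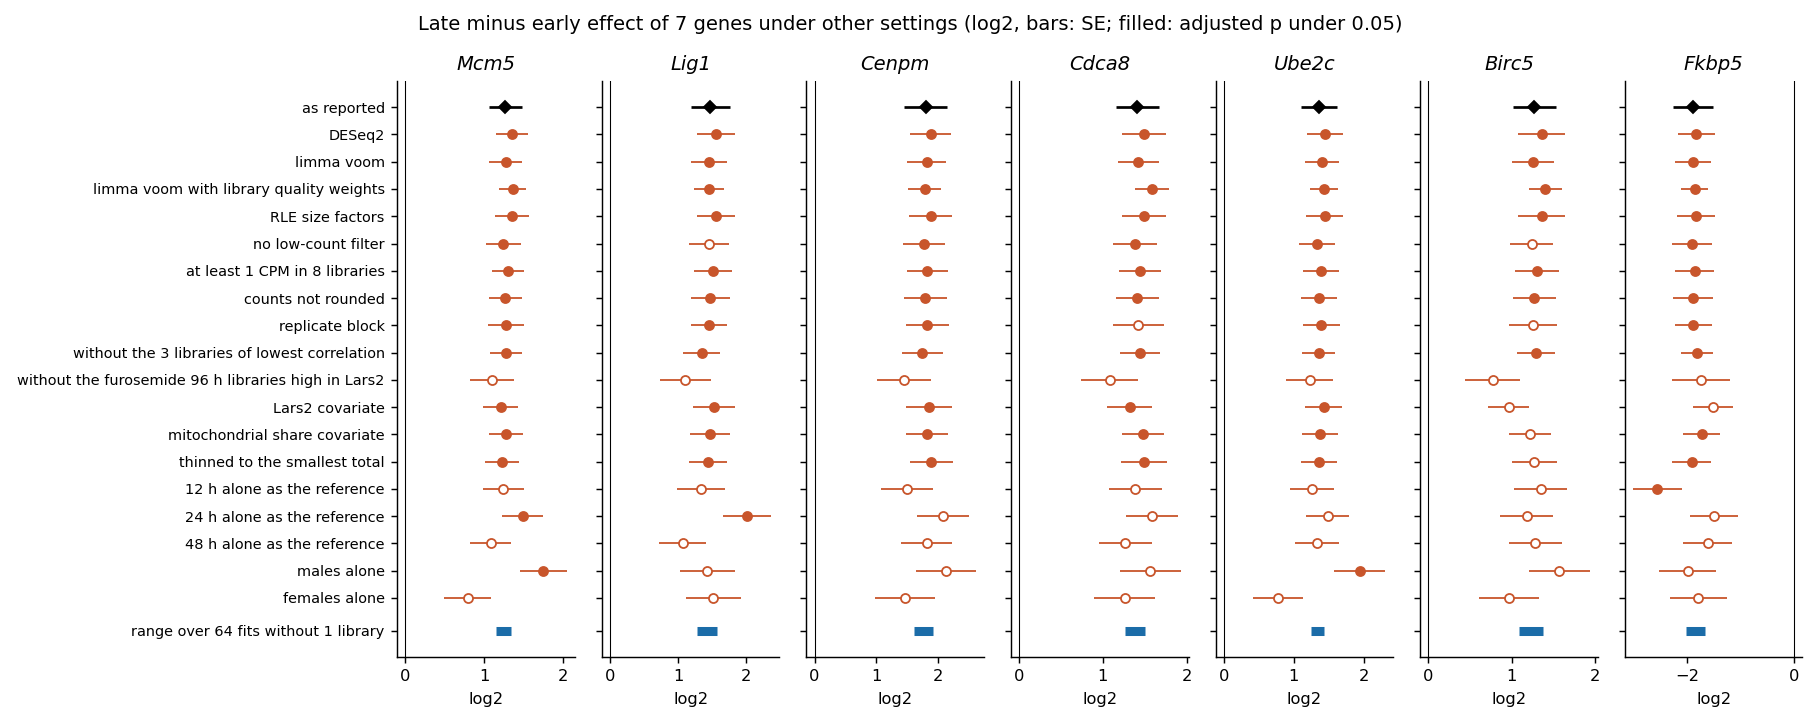
Late minus early effect (log2, bars are SE) of the 7 called genes under 18 settings, filled where the adjusted p was under 0.05, with a bar for the range over the 64 fits that each left out 1 library. No point crosses 0, and most open points belong to the single times, the single sexes and the fit without the libraries high in Lars2.

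Over 64 fits that each left out 1 library, Mcm5 was called in 64 (1.16 to 1.34), Cdca8 in 60, Ube2c and Cenpm in 59, Fkbp5 in 55 (−2.02 to −1.67), Lig1 in 54 and Birc5 in 24. All fits without 1 library kept the genes tested and the dispersion trend of the fit of all libraries. The fits without 3 or 5 libraries estimated both again. The count of called genes was 15 when female control 24 h replicate 3 was left out, and 11 when replicate 1 of the female furosemide group of 96 h was. Of the other libraries of 96 h, leaving out male furosemide replicate 4, female control replicate 1 or female furosemide replicate 4 gave 4, 3 and 2 calls. Leaving out female control replicate 2, male control replicate 3 or male furosemide replicate 1 gave 1.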

How the data were processed

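Per the labels' protocols, RNA of dissected tubules was amplified with SMART-Seq HT and made into libraries with Nextera XT, which keep neither strand nor molecular identifiers. The authors deposited estimated counts per gene (expected counts), made with Salmon on GRCm38.p6 per the submitters' processing notes. The annotation and the summing to genes were not given in the sources used here. Paralogs, overlapping and antisense genes are uncertain.

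Counts were rounded (55.05% of the values were whole within 1e-06) and tested with edgeR 4.0.16 by its quasi-likelihood test, with TMM scaling and filterByExpr (minimum count 10, 41507 of 54331 genes kept). The fit had 1 mean for each of 16 groups, and Benjamini-Hochberg adjustment ran over all genes. Each SE is the fold change divided by the square root of its F. Symbols and positions came from GENCODE release 21 of the mouse (M21) by identifier, with 54097 matched and 234 not. The procedure was tested on simulated data. No 2 libraries of a group agreed within counting noise.

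The members and lists were chosen with earlier results of these data known. Named genes are the called ones, those of smallest p up to 8 per direction, the leading members of each list and a fixed few. For 8 marker lists the counts alone are given, and a few genes that the rule picks are left out. Genes named for a count (those called early, or in other settings) were chosen after their values were seen. Alternatives covered scaling, filter, tool, rounding, replicate number, depth, covariates, libraries, times and sexes.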

Additional observations from a re-analysis of the deposited data

Results flagged for a closer look

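In 7 cases 1 library of a called gene lay far from the other 7 of its diet and time, by a gap above Dixon's 95% critical value for 8 samples. Of 56 such groups tested, chance flags about 1 in 20. Male control 12 h replicate 3 was high in Cdca8 (9.395 CPM, the next 6.301) and in Ube2c (18.27 CPM, the next 11.78). Male furosemide 48 h replicate 2 was high in Cdca8 (11.77 CPM, the next 7.632). Female control 24 h replicate 3, which correlates poorly with its group, was low in Birc5 (8.935 CPM, the next 23.53). Fkbp5 was high in female control 12 h replicate 1 (81.09 CPM, the next 47.89), in male furosemide 12 h replicate 4 (246.6 CPM, the next 83.69), which also correlates poorly, and in female furosemide 24 h replicate 3 (82.89 CPM, the next 46.31). No library of 96 h was among them.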

How the results depend on the processing

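The 7 called genes kept their sign in all settings run, which reuse the libraries on which they were called, and the counts of calls moved. The late minus early count of 7 became 59 with DESeq2, 11 with voom, 1482 with voom and quality weights, 25 without the 3 libraries of poor correlation, 1 without the 5 high in Lars2, 1, 2 and 0 against 12, 24 and 48 h alone, and 2 and 0 in males and females. The 96 h count of 34 became 172 (DESeq2), 115 (voom), 1515 (quality weights), 55 (genes of at least 1 CPM), 134 (without the 3) and 3 (without the 5). The early count of 155 became 380 (DESeq2), 2871 (quality weights), 2964 (without the 3), 100 (without the 5) and 525 (Lars2 covariate). The male minus female count of 0 became 22 (DESeq2), 1 (quality weights) and 1 (without the 5). The control count of 5111 for 96 h minus earlier became 8005 (voom), 15707 (quality weights), 9678 (without the 3), 406 (Lars2 covariate) and 915 (mitochondrial covariate), and the furosemide count of 2611 became 10302, 5922, 1082 and 809 under the last 4. The count of 3 for differences among the earlier times became 7 (DESeq2), 1 (voom) and 0 (quality weights, Lars2 and mitochondrial covariates). The cause of these shifts was not tested.

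Replicate numbers did not pair the libraries: 1 of 32 pairs of libraries with the same number had correlated deviations over 0.1, and 5 of 32 correlated best with their own number. With the replicate block the late minus early count was 6, with 5 of the 7 among them, the 96 h count 22, the early count 63 and that among the earlier times 0, and Tubb2b was at −0.0103.

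Signs turned in 23 cases, all of genes not called. Without the 5 libraries, Srxn1 (−0.52 with all libraries) was at 0.0191, Ndufs1 (−0.45) at 0.11, Wnt4 (0.77) at −0.16, mt-Rnr2 (0.53) at −0.23, mt-Cytb (0.31) at −0.0505, Slc12a3 (−0.03) at 0.14 and Ldha (−0.31) at 0.0634; the median of all genes was −0.14 there, 0.14 with DESeq2 and 0.13 with RLE scaling, against 0.06. mt-Cytb was at −0.0462 with quality weights and −0.17 in females. Slc12a3 was at 0.0278 with DESeq2 and with RLE, 0.12 with the Lars2 covariate, 0.00792 against 48 h and 0.00891 in males. Pvalb was at −0.26 against 48 h. Tubb2b was at −0.00673 with voom, −0.0413 with quality weights, −0.15 without the 3, −0.50 against 48 h and −0.0357 in females. Ldha was at 0.41 against 24 h and 0.25 in males.

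Leaving out 1 library at a time, the counts ranged from 1 to 15 (late minus early), 18 to 90 (96 h), 78 to 2720 (early, highest without female control 24 h replicate 3), 0 to 0 (male minus female), 3650 to 8524 (controls), 1723 to 4104 (furosemide) and 0 to 4 (among earlier times). With every library thinned to the smallest total, the late minus early count was 6 and the 96 h count 36.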
